A study of Homo sapiens with 6 samples.

Results

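The hepatocyte lineage transcription factors followed here are the 8 genes HNF4A, HNF4G, FOXA1, FOXA2, FOXA3, CEBPA, CEBPB and PROX1, found by gene name among the 57773 rows of the deposited count table. RNA was sequenced from HepG2 cells, an established line from a human liver carcinoma, after 3 h with recombinant human TGFB1 ligand at 5 ng/mL (3 cultures) or with its vehicle (3 cultures). All cultures were grown in MEM with serum and, by the methods, washed and moved to MEM without serum before ligand or vehicle was added, and the line stands in for hepatocytes only as far as a tumor line can. Each library held between 60815385 and 100099136 reads counted on genes, of which between 50909 and 87508 lay on the 8 factors, and all 8 passed the filter on low counts that left 22747 genes for testing. The TGFβ targets SMAD7 and SKIL rose by 1.72 and 2.45 on the log2 scale (FDR 3.73e-05 and 8.43e-06), in the direction of the treatment labels.

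These factors keep hepatocyte genes on by binding side by side at liver enhancers and promoters, and by holding each other's expression up. HNF4A is a nuclear receptor required for hepatocyte differentiation and HNF4G is its paralog. The FOXA proteins are forkhead factors that open chromatin for the liver program, CEBPA and CEBPB are leucine zipper factors of metabolic and acute phase genes, and PROX1 is a homeobox factor of liver growth that also acts as a corepressor of HNF4A. TGFβ is known as an inhibitor of hepatocyte growth and differentiation, and the comparison asks whether these genes respond within its first hours.

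None of the 8 factors passed a false discovery rate (FDR, Benjamini-Hochberg) of 0.05 in edgeR's quasi-likelihood test (0 of 8, against 4.12% of all tested genes, 3.11% higher and 1.01% lower), while 5 had an unadjusted P under 0.05 (62.5%, against 13.7% of all tested genes). Of these 1 was higher and 4 were lower with TGFβ, against 8.69% and 4.97% of all tested genes. Cultures that carry the same number in both groups deviated together, and with the number as a block in the fit 5 of the 8 passed, against 11.8% of all tested genes. CEBPA and FOXA1 were then called higher (2 of 8, against 8.08% of all tested genes) and HNF4G, FOXA3 and PROX1 lower (3 of 8, against 3.75%), while HNF4A, FOXA2 and CEBPB were not called. DESeq2 without the block called 1 of the 8, HNF4G (FDR 0.0272), against 6.22% of all tested genes, and limma-voom called 0, against 3.92%. The changes were small, with fitted log2 fold changes from -0.39 to 0.43 and a median of -0.09, against a median of -0.01 over all tested genes. In 7 of the 8 genes the TGFβ culture lay on the same side of its same-numbered vehicle culture in all 3 pairs, as for 44.2% of all tested genes. Of these 3 were higher and 4 lower with TGFβ, against 23.3% and 20.9%. The groups did not overlap for 4 of the 8, 0 higher and 4 lower with TGFβ, against 18.6% of all tested genes (10.4% higher and 8.23% lower). In bulk RNA, fewer cells that express a gene and less RNA of it per cell cannot be told apart.

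**Figure D1:**
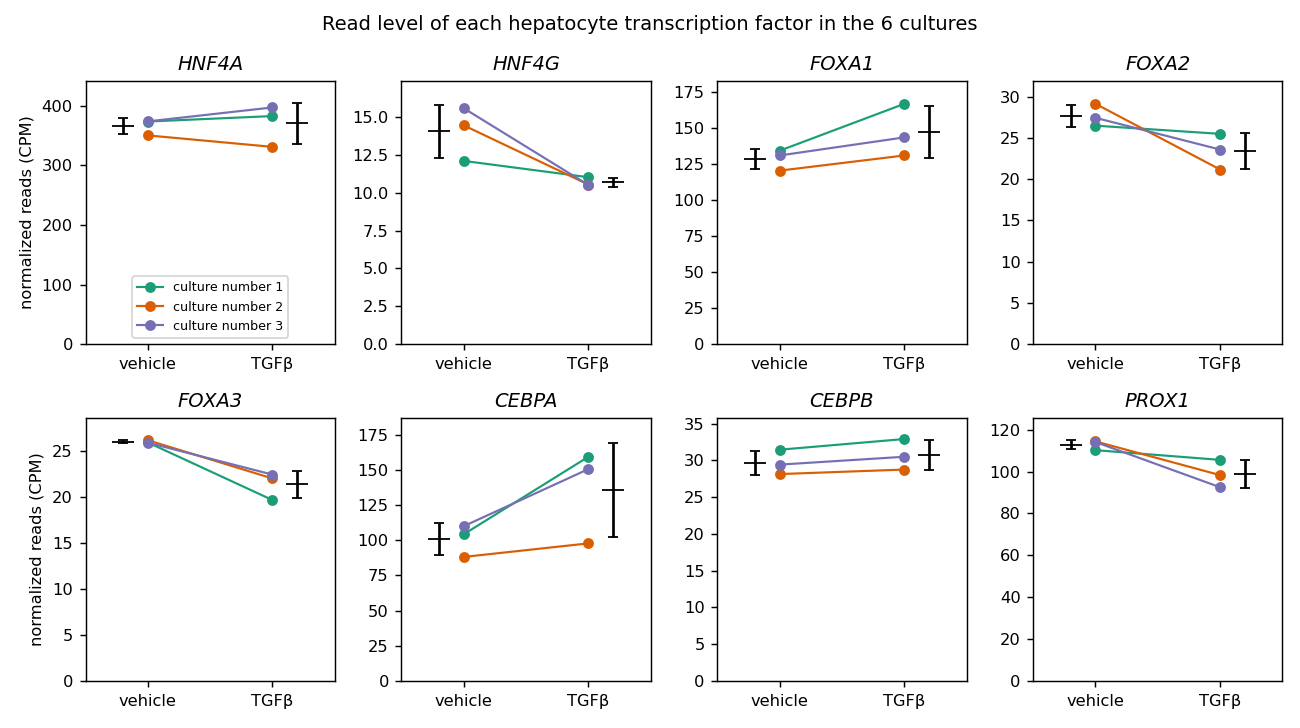
TMM-normalized read level in CPM (counts scaled to library size, vertical axes from 0) of each factor in vehicle and TGFβ cultures. Lines join cultures of the same number, and black marks give the mean and SD of each group (n = 3). HNF4G, FOXA2, FOXA3 and PROX1 lie lower in all TGFβ cultures than in any vehicle culture, and the groups overlap for the other 4 genes.

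The factors differed widely in level. On the scale of deposited RPKM, which divides reads by library depth and coding length and so allows genes to be compared, HNF4A was the most abundant, at 54.4 ± 0.777 with vehicle (SD, n = 3), and ranked 698 among the 22747 tested genes by its mean over all cultures. CEBPA followed at 31.6 ± 2.89 RPKM and FOXA1 at 25.9 ± 0.901 RPKM. CEBPB stood at 13.3 ± 0.545, PROX1 at 10.7 ± 0.414, FOXA3 at 9.80 ± 0.283 and FOXA2 at 8.81 ± 0.624 RPKM, and HNF4G was lowest at 2.42 ± 0.317 RPKM. With vehicle, the range of each factor over the cultures lay wholly above that of the next one in this order. With TGFβ the ranges of CEBPA and FOXA1, of PROX1 and FOXA3, and of FOXA3 and FOXA2 overlapped. Within single TGFβ cultures the order was broken only by FOXA3 and FOXA2 in culture 1, at 7.27 and 7.95 RPKM.

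The start regions of the factors were examined for short motifs, since 5 of the 8 genes (HNF4A, FOXA1, FOXA3, CEBPA and CEBPB) have an entry in the RefSeq promoter table, which is on GRCh38.p14. Shown are the 200 bases before the annotated start for the 3 of these genes that were called with the block and for HNF4A, the most abundant factor. For HNF4A the second of 2 entries, from the more downstream start, is given. Capitals mark matches, on either strand, to the SMAD core CAGAC or GTCTG, the FOXA motifs TGTTTAC or TATTTAC, the HNF4 form CAAAGTCC and the C/EBP form TTGCNNAA, and, on the coding strand, to the TATA box TATAAA. The windows are HNF4A at chr20:44401039-44401238 (plus strand), FOXA1 at chr14:37595250-37595449 (minus), FOXA3 at chr19:45864126-45864325 (plus) and CEBPA at chr19:33302535-33302734 (minus), each written 5′ to 3′ on the coding strand.
HNF4A: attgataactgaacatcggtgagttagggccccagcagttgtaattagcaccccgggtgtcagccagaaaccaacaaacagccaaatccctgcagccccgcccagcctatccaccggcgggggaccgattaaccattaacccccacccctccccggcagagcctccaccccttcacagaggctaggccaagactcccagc
FOXA1: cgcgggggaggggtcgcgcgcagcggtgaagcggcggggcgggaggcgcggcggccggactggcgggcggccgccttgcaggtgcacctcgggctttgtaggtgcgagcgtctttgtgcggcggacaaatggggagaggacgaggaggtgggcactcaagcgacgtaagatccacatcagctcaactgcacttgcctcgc
FOXA3: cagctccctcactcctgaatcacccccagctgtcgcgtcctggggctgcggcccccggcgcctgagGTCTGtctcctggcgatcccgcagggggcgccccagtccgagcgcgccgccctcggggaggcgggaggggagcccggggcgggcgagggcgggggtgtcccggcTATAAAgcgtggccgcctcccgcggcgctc
CEBPA: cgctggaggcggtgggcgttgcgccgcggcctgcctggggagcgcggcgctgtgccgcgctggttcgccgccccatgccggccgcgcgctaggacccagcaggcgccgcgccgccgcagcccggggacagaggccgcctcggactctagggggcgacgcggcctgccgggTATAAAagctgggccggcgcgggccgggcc

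Both FOXA3 and CEBPA held TATAAA from -30 to -25 counted from the start, a motif found in 5.58% of the 35116 windows of this length in the table. CEBPB, which was not called without or with the block, also held it, from -29 to -24 in the window of its second entry, not shown. The window of the first CEBPB entry matched none of the motifs. FOXA3 also held GTCTG from -134 to -130, a form of the SMAD core that 31.2% of all windows contain, and CEBPA and FOXA1 held none in this window. The FOXA1 window and the HNF4A window shown matched none of the motifs, while the window of the other HNF4A entry, not shown, held GTCTG from -142 to -138. Gene counts do not separate the starts of HNF4A. The FOXA motifs, the HNF4 form and the C/EBP form, present in 4.08%, 0.832% and 6.91% of all windows, were found in none of the 4 windows. The windows of CEBPA, FOXA3 and FOXA1 were rich in G and C, at 80.5%, 77.5% and 70.0%, against a median of 59.0% over all windows. The HNF4A window, at 59.5%, was near that median. The windows of the first and second CEBPB entries, not shown, had 77.5% and 76.0%, so high values were not limited to factors called with the block.

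The HNF4 paralogs differed in their values. HNF4A (ENSG00000101076, chr20:42984340-43061485, plus strand, hg19) had 373, 350 and 373 CPM in vehicle cultures 1 to 3 and 382, 331 and 397 CPM in the TGFβ cultures. The groups overlapped, and culture number 2 was the lowest of each group. Its log2 fold change was 0.02 (standard error 0.08, 95% interval -0.17 to 0.20, FDR 0.960). With the block the interval was -0.10 to 0.13 (FDR 0.906).

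HNF4G (ENSG00000164749, chr8:76320149-76479078, plus strand, hg19) had 12.1, 14.4 and 15.6 CPM with vehicle and 11.0, 10.5 and 10.5 CPM with TGFβ. Every TGFβ culture was below every vehicle culture, and vehicle culture 1 was the nearest to the TGFβ group. The log2 fold change was -0.39 (standard error 0.11, FDR 0.108), or 76.2% of the vehicle level. It was called lower with the block (log2 fold change -0.38, standard error 0.10, FDR 0.0212) and, without the block, when vehicle replicate 1 was left out (FDR 0.0370). With the block it was not called without the cultures numbered 2 (FDR 0.142) or 3 (FDR 0.0830).

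HNF4A had 26.7, 20.9 and 20.7 times as many reads per kilobase as HNF4G in the vehicle cultures and 30.0, 27.1 and 32.6 times as many in the TGFβ cultures. This ratio, which does not depend on scaling between libraries, was thus higher in every TGFβ culture, by 0.40 on the log2 scale (P = 0.1 in a two-sided exact permutation test, which cannot give a lower value with 3 cultures per group, and 0.167 after Benjamini-Hochberg adjustment over 5 ratios). HNF4G made up 4.26% ± 0.558 of the HNF4 reads per kilobase with vehicle and 3.25% ± 0.292 with TGFβ (SD, n = 3).

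**Figure D2:**
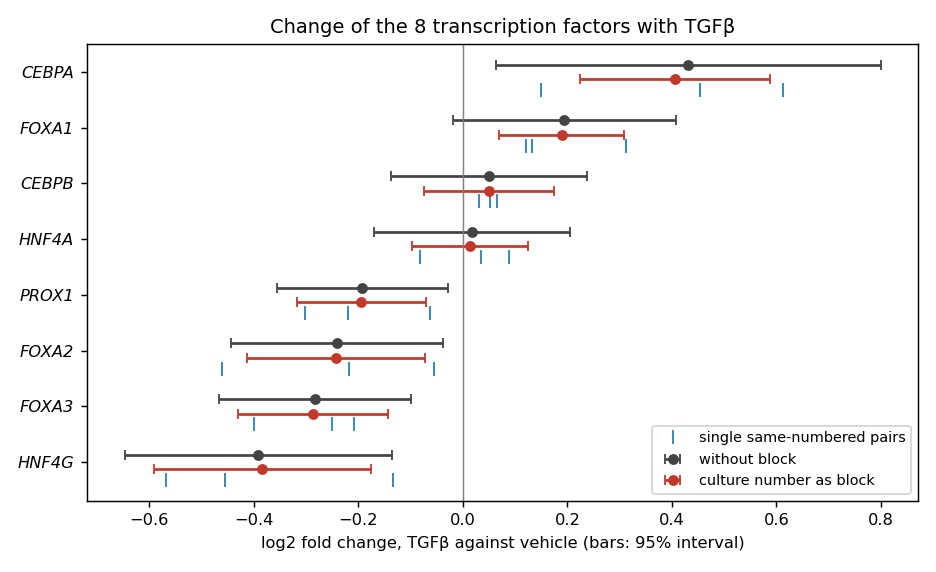
Log2 fold change of each factor with TGFβ against vehicle, without a block (grey) and with the culture number as a block (red), with 95% intervals. Blue ticks give the difference within each same-numbered pair of cultures. CEBPA and HNF4G lie at the ends, at 0.43 and -0.39, and HNF4A and CEBPB lie near 0.

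The FOXA genes lay on both sides of 0. FOXA1 (ENSG00000129514, chr14:38059189-38069245, minus strand, hg19) had 134, 120 and 131 CPM with vehicle and 167, 131 and 144 CPM with TGFβ. Each TGFβ culture was above the vehicle culture of its number, but TGFβ culture 2 lay inside the range of the vehicle group. FOXA1 gave 0.19 on the log2 scale (FDR 0.439, standard error 0.10), and it was called higher with the block (standard error 0.05, FDR 0.0442). With the block this call was lost without the cultures numbered 1 (FDR 0.241) or 2 (FDR 0.0721) and with total-count scaling (FDR 0.107).

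FOXA2 (ENSG00000125798, chr20:22561643-22566093, minus strand, hg19) had 26.5, 29.1 and 27.4 CPM with vehicle and 25.5, 21.2 and 23.6 CPM with TGFβ. The groups did not overlap, though TGFβ culture 1 was close to vehicle culture 1. Its fitted log2 fold change was -0.24 (standard error 0.09, FDR 0.246), and FOXA2 missed the threshold with the block as well (FDR 0.0691). It passed with the block when the cultures numbered 1 were left out (log2 fold change -0.35, FDR 0.0184) or when total-count scaling was used (FDR 0.0360).

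FOXA3 (ENSG00000170608, chr19:46367247-46377055, plus strand, hg19) had 25.9, 26.1 and 25.9 CPM with vehicle and 19.6, 22.0 and 22.4 CPM with TGFβ. The vehicle cultures lay close together and all TGFβ cultures lay below them, number 1 the furthest. On the log2 scale the fold change was -0.28 (standard error 0.08, FDR 0.106), or 82.2% of the vehicle level. FOXA3 was called lower with the block (log2 fold change -0.29, standard error 0.07, FDR 0.0136), a call that was lost without the cultures numbered 1 (FDR 0.0764) or 2 (FDR 0.0656).

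Within the family, the share of FOXA1 in the reads per kilobase was 58.1% ± 2.01 with vehicle and 65.5% ± 2.53 with TGFβ (SD, n = 3). FOXA2 made up 19.8% ± 1.40 with vehicle and 16.5% ± 0.232 with TGFβ, and FOXA3 22.0% ± 0.613 and 18.0% ± 2.58. The ratio of FOXA2 to FOXA1 was lower in all TGFβ cultures without overlap, by -0.43 on the log2 scale, and so was that of FOXA3 to FOXA1, by -0.47 (exact permutation tests, two-sided, P = 0.1 and adjusted P = 0.167 for both). The ratio of FOXA3 to FOXA2 overlapped between the groups, with a difference of -0.04 (exact permutation test, P = 0.9), which became 0.08 without TGFβ replicate 1.

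**Figure D3:**
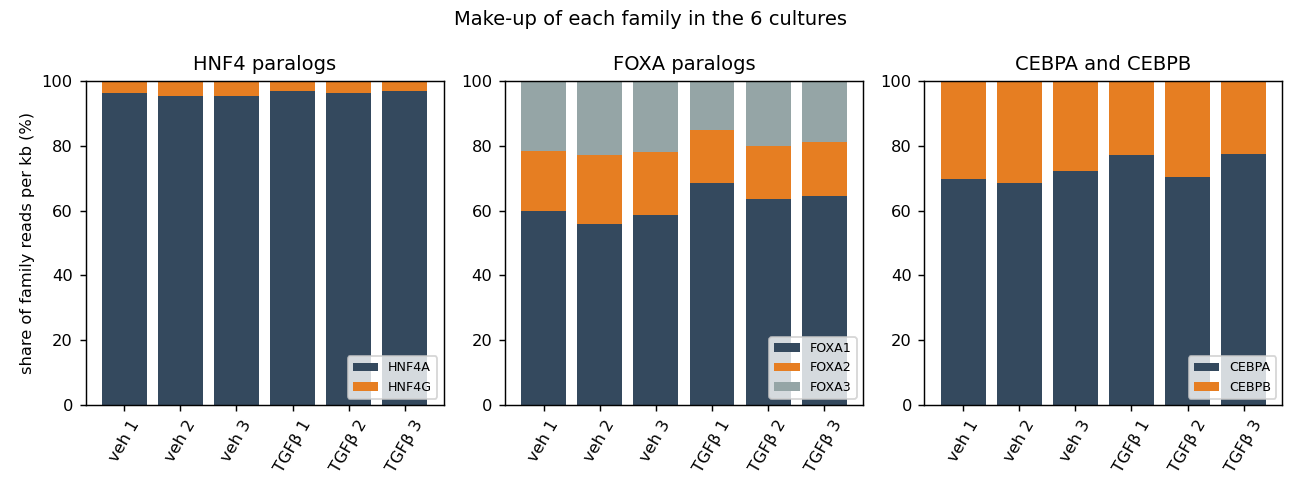
Share of each paralog in the reads per kilobase of coding length of its family, in percent, for the 6 libraries (veh, vehicle). FOXA1 takes between 55.9% and 59.8% with vehicle and between 63.7% and 68.4% with TGFβ, and HNF4A takes over 95% of its family in every library.

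Of the C/EBP factors, CEBPA (ENSG00000245848, chr19:33790840-33793470, minus strand, hg19) had 104, 88.1 and 110 CPM with vehicle and 159, 97.7 and 150 CPM with TGFβ. TGFβ cultures 1 and 3 were above all vehicle cultures, and TGFβ culture 2 was inside the vehicle range but above its own partner. The log2 fold change was 0.43 (standard error 0.16, FDR 0.255), the largest positive value among the 8 factors, and the differences within pairs were 0.61, 0.15 and 0.45. CEBPA was called higher with the block (log2 fold change 0.41, standard error 0.08, FDR 0.0105), and this call held without the cultures numbered 1 (FDR 0.0331), 2 (FDR 0.000145) or 3 (FDR 0.0130) and with total-count scaling (FDR 0.0278). Without TGFβ replicate 2 it also passed without the block (log2 fold change 0.61, FDR 0.0160). CEBPA was the only one of the 8 whose call with the block held in all 4 of these alternatives.

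CEBPB (ENSG00000172216, chr20:48807376-48809212, plus strand, hg19) had 31.5, 28.1 and 29.4 CPM with vehicle and 32.9, 28.8 and 30.5 CPM with TGFβ. Each TGFβ culture was slightly above its partner and the groups overlapped. The log2 fold change was 0.05 (standard error 0.08, 95% interval -0.14 to 0.24, FDR 0.879), and with the block the FDR was 0.665. CEBPB had 0.432, 0.458 and 0.383 times as many reads per kilobase as CEBPA with vehicle and 0.296, 0.421 and 0.290 times with TGFβ, a difference of -0.36 on the log2 scale (exact permutation test, two-sided, P = 0.2, adjusted P = 0.250), with overlap between the groups.

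PROX1 (ENSG00000117707, chr1:214156524-214214595, plus strand, hg19) had 110, 114 and 114 CPM with vehicle and 106, 98.3 and 92.5 CPM with TGFβ. All TGFβ cultures were below all vehicle cultures. PROX1 gave -0.19 on the log2 scale (FDR 0.252, standard error 0.07), or 87.5% of the vehicle level, and the gene was called lower with the block (standard error 0.06, FDR 0.0471). This call was lost without the cultures numbered 2 (FDR 0.299) or 3 (FDR 0.237).

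Transcripts that overlap the factors or lie within 10000 bp of them were read from the same table, 20 rows at 6 of the 8 genes, of which 18 were tested. Only R3HDML passed without the block, where 4.12% of all tested genes did. This gene, 4465 bp from the 5′ end of HNF4A, had 44, 29 and 29 reads in the vehicle cultures against 98, 93 and 82 in the TGFβ cultures, and rose by 1.32 on the log2 scale (standard error 0.23, FDR 0.0105). It lost the threshold without vehicle replicate 2 or TGFβ replicate 2, where its FDR was 0.0632 and 0.0523. HNF4A-AS1, annotated on the strand opposite to HNF4A inside the gene, had 414, 268 and 322 reads in the vehicle cultures against 299, 84 and 192 in the TGFβ cultures. In CPM its TGFβ cultures were all below the vehicle cultures (log2 fold change -0.95, standard error 0.34, FDR 0.218), and it was called lower with the block (log2 fold change -1.03, standard error 0.18, FDR 0.00357). Whether counting used strand was not given in the sources used here, so reads of HNF4A and of this antisense RNA cannot be told apart where they overlap.

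LINC00261, a noncoding RNA 2363 bp from FOXA2, had 57.1, 61.6 and 87.1 CPM with vehicle and 55.9, 39.5 and 61.4 CPM with TGFβ, with overlap between the groups (log2 fold change -0.39, standard error 0.18, FDR 0.407, and 0.0886 with the block). TTC6, which overlaps FOXA1, had a log2 fold change of 0.28 (FDR 0.373). At CEBPA, the overlapping rows AC008738.1, CTD-2540B15.11 and CTD-2540B15.7 had log2 fold changes of 0.42, 0.42 and 0.44. AC008738.1 held between 95.1% and 96.8% as many reads as CEBPA in each library, so these rows can rest on the same reads and are not further evidence. With the block, under which 11.8% of all tested genes passed, 5 of the 18 tested neighbors did: R3HDML, HNF4A-AS1 and the 3 rows that overlap CEBPA and can share its reads.

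**Figure D4:**
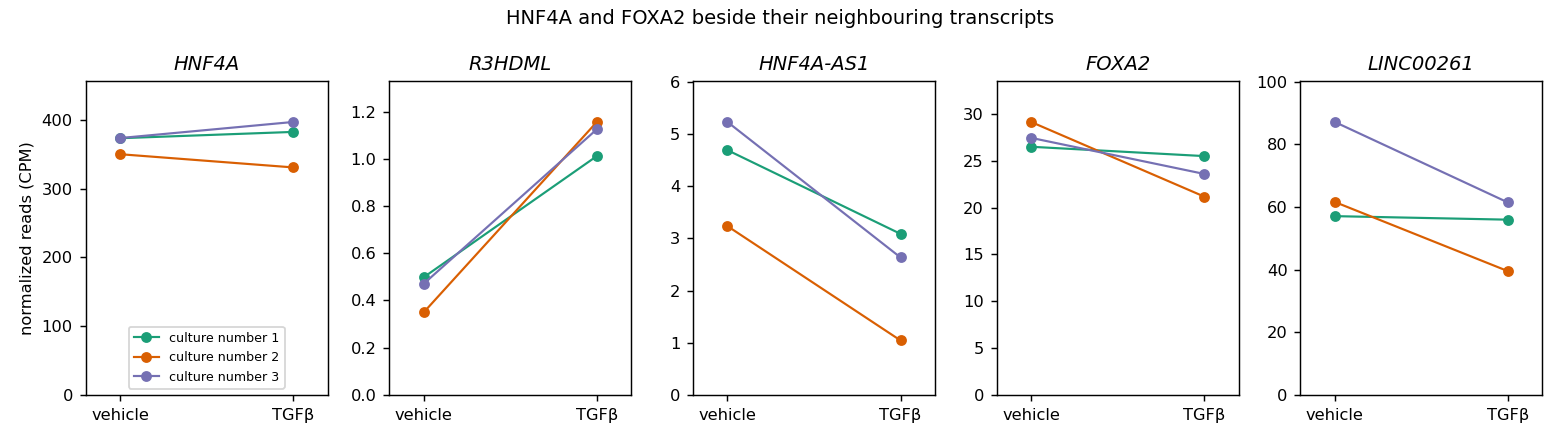
TMM-normalized read level in CPM (axes from 0) of HNF4A and FOXA2 and of transcripts next to or inside them, with lines joining cultures of the same number. R3HDML lies between 0.350 and 0.498 CPM with vehicle and between 1.01 and 1.16 CPM with TGFβ, while HNF4A overlaps between the groups.

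Other liver transcription factors were read from a list of 28 genes, of which 27 were tested. Without the block 1 was called higher and 3 lower (14.8%, against 4.12% of all tested genes), and with it 5 were higher and 11 lower (59.3%, against 11.8%). Negative values made up 19 of the 27, with a median of -0.15. HHEX, a homeobox factor of early liver formation, fell from 96.2, 72.2 and 91.6 CPM with vehicle to 52.3, 38.3 and 44.4 CPM with TGFβ, by -0.94 on the log2 scale (standard error 0.13, FDR 0.00334). XBP1, a factor of the unfolded protein response, fell by 0.42 on the log2 scale (standard error 0.06, FDR 0.00557). NR2F1, an orphan nuclear receptor, had a log2 fold change of -0.40 (FDR 0.0230), and NR1I2, the pregnane X receptor, one of 0.38 (FDR 0.0386). NR2F1 lost its call without any 1 of the 6 libraries, with an FDR up to 0.114, and NR1I2 lost its call without any 1 of 5 of them, with an FDR up to 0.171, and kept it without vehicle replicate 1.

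With the block, further factors of the list were called. ONECUT1 (log2 fold change -0.64, FDR 0.111 without and 0.0114 with the block) and ONECUT2 (-0.47, FDR 0.108 and 0.0258), cut-domain factors of liver development, were lower. NR1H4, the bile acid receptor, was lower (-0.44, FDR 0.0613 and 0.000984), and RXRA, the partner receptor in many nuclear receptor dimers, was higher (0.41, FDR 0.149 and 0.000245). Among C/EBP relatives, CEBPG was called higher with the block (0.28, FDR 0.104 and 0.00401) and CEBPD lower (-0.40, FDR 0.215 and 0.0427). These were named after their values were seen.

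**Figure D5:**
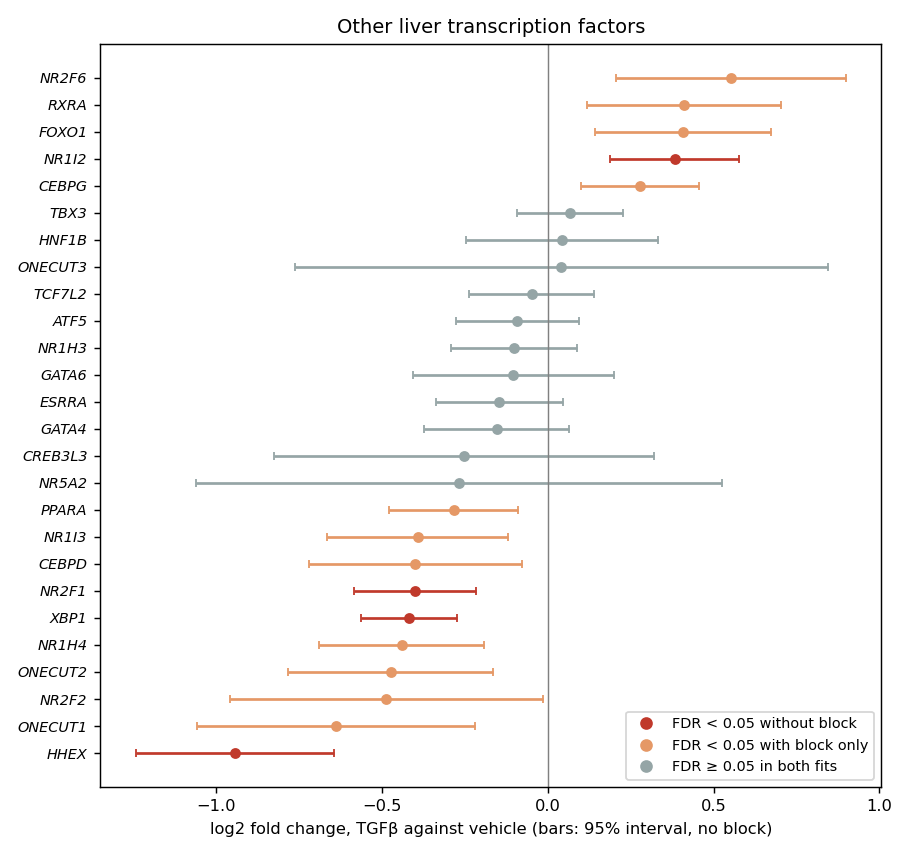
Log2 fold change with TGFβ against vehicle of 26 of the 27 tested liver transcription factors outside the 8, with 95% intervals of the fit without a block. HHEX at -0.94 and NR2F6 at 0.55 lie at the ends, and 4 genes passed the FDR threshold in this fit.

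Hepatocyte genes known to be bound by these factors served to check the cell type and were read for changes of their own. The activity of the factors was not measured. ALB, the main plasma protein, had 17229, 14950 and 15894 CPM with vehicle and 17138, 13842 and 15600 CPM with TGFβ. TF, SERPINA1, APOA1 and FGB were expressed at 3679, 4796, 2033 and 237 CPM on average with vehicle, and CRP, F9, SAA1 and TDO2 had between 0 and 2 reads in each library, so the cultures carried some but not all hepatocyte markers. Of the list of 30 genes, 26 were tested and 0 were called higher and 3 lower (11.5%, against 4.12% of all tested genes, 1.01% lower). The 3 were PCK1 and G6PC, enzymes of gluconeogenesis, and CYP7A1, the first enzyme of bile acid synthesis. Their log2 fold changes were -2.79, -0.91 and -2.48, and their mean levels with vehicle were only 1.30, 1.51 and 0.394 CPM. With the block 0 were higher and 8 lower (30.8%, against 11.8% of all tested genes, 3.75% lower), the others being IGFBP1 (-1.05 without the block, FDR 0.0628, and 0.000172 with it), MTTP, FABP1, FGB and TTR. The median over the list was -0.10, against -0.01 over all tested genes. CYP7A1 had no adjusted P in DESeq2 and lost the threshold when vehicle replicate 3 or either of the TGFβ replicates 2 and 3 was left out, with an FDR up to 0.119, and G6PC without any 1 library but TGFβ replicate 3, with an FDR up to 0.153.

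Markers of other cell types differed in level between the lists. SPP1, SOX9, KRT19 and EPCAM of the bile duct and progenitor list stood at 803, 240, 198 and 158 CPM on average with vehicle. The mesenchymal marker ACTA2 and the macrophage marker CD68 stood at 39.7 and 36.8 CPM. No other analysed gene of these lists was above PROM1, at 13.3 CPM, and many were near or at 0. KDR, MARCO and, with vehicle, PTPRC and CSF1R had 0 reads, and the summed level of the endothelial list was between 1.25 and 1.50 CPM with vehicle and between 0.867 and 1.26 CPM with TGFβ. The bile duct and progenitor list, of which 7 of 8 genes were found by name, summed to between 1317 and 1496 CPM with vehicle and between 1283 and 1522 CPM with TGFβ, and KRT19, EPCAM and SPP1 in it were not called in either fit, while KRT7, at 0.199 CPM on average with vehicle, was called higher with the block only (FDR 0.0615 without and 0.0230 with it). SOX9 in the same list fell (log2 fold change -0.48, FDR 0.0109), and without vehicle replicate 3 the value was -0.47 and missed the threshold (FDR 0.0631). The mesenchymal list summed to between 52.6 and 57.5 CPM with vehicle and between 62.8 and 71.4 CPM with TGFβ. Of its 4 tested genes 0 were called without the block (2 at an unadjusted P under 0.05) and 2 with it, PDGFRB and COL1A1 (log2 fold changes 1.22 and 0.57, FDR 0.0582 and 0.193 without the block). The other tested genes, ACTA2 and LRAT, had log2 fold changes of -0.02 and -0.76 (FDR 0.958 and 0.387 without the block, 0.882 and 0.290 with it). LRAT stood at only 0.177 CPM on average with vehicle. COL1A2, COL3A1, DES and THY1 were below the filter. Over all tested genes 4.12% were called in edgeR without the block and 11.8% with it, and 13.7% had an unadjusted P under 0.05. The macrophage list, with CD68 as its main gene, summed to between 36.4 and 40.8 CPM with vehicle and between 38.3 and 43.4 CPM with TGFβ. In the endothelial and macrophage lists 2 genes each were tested in edgeR, and 0 were called, with the block or at an unadjusted P under 0.05. The part of any other cell type in the values of the 8 factors was not tested.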

How the data were processed

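RNA of 6 HepG2 cultures, 3 per group, was sequenced by the authors as paired reads, 1 library per culture. They aligned reads to hg19 (TopHat2 2.0.6 in the submitters' processing notes) and deposited raw read counts per gene from MAPRseq 2.0.0, with RPKM values per coding length beside them. The deposited RPKM was used only for levels between genes. Annotation release and strand setting were not given in the sources used here.

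Counts were tested with edgeR 4.0.16 (limma 3.58.1, R 4.3.3): TMM, filterByExpr, the robust quasi-likelihood F test and Benjamini-Hochberg adjustment over 22747 genes, FDR under 0.05. Each standard error is the log2 fold change divided by the root of F, and 95% intervals use its degrees of freedom. DESeq2 was version 1.42.0. The steps were tested on counts simulated without any effect of culture number, so that test does not show how the block handles such an effect. Deviations from the group means (log2 CPM, prior count 2, 15899 genes at 1 CPM or more) correlated across genes by 0.587, 0.473 and 0.548 between cultures of the same number, and by at most 0.0118 between others. Numbers come from the sample titles and were taken as pairs. Cultures 1 and 2 shared lanes 1 and 3 with their partners, and cultures 3 were run on lanes 4 and 5. The methods call the sequenced samples biological replicates, while the labels do not say how cultures were separated, and P-values measure the spread between these samples. Replicates differed beyond counting noise (chi-square per gene 19.2 to 41.3), and none was merged.

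The 8 genes, the lists and the rules were chosen with earlier results of these data known. Named genes were the 8, their neighbors within 10000 bp, list genes past the threshold (up to 6 per list, or the 2 of smallest P), the closest profiles, and genes stated as named later. CD24 and PECAM1 were on marker lists and are not analysed here, and the values of 2 further list genes are not reported here. Alternatives were other scalings and filters, DESeq2, limma-voom, the block and left-out libraries. Fits with the block and a pair left out, or with total-count scaling, were added after the data were seen. All per-sample columns were used.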

Additional observations from a re-analysis of the deposited data

How the results depend on the processing

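The edgeR fit without a replicate block left 0 of the 8 factors called, also with other size factors, total-count scaling, no filter, a filter of at least 10 counts in each library, and in limma-voom. DESeq2 called 1 lower. With single libraries left out, between 0 and 1 were called higher and between 0 and 1 lower. The block called 2 higher and 3 lower. With the block and the cultures of number 1, 2 or 3 left out, 1, 1 and 2 were higher and 3, 0 and 1 lower, and with the block and total-count scaling 1 was higher and 4 were lower. The shares of all tested genes called with number 1, 2 or 3 left out were 10.4%, 6.48% and 13.3%. With the block and total-count scaling the share was 12.2%. Of the other liver factors, 2 were higher and 5 lower without a filter, 3 and 7 with DESeq2, 5 and 11 with the block, and 5 and 12 with the block and total-count scaling. With single libraries left out, between 0 and 1 were higher and between 2 and 3 lower, and with the block and a number left out 5 were higher in each case and 10, 7 and 9 lower. Of the hepatocyte target genes, 8 were lower with the block, 8 with the block and total-count scaling together, between 1 and 2 with single libraries left out (1 without vehicle replicate 3), and 8, 4 and 8 with the block and number 1, 2 or 3 left out. Over all genes, 937 were called, 1415 with DESeq2, between 485 and 998 with single libraries left out and 2690 with the block. As shares of the tested genes these were 4.12%, 6.22%, between 2.09% and 4.28%, and 11.8%. The share was 3.05% without a filter. The block gave 1837 higher and 853 lower, against 1538 and 1243 with the block and total-count scaling, which moved the median of all genes by -0.042 on the log2 scale.

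HNF4A, near 0, turned negative with total-count scaling (-0.0239), with no filter (-0.0035), with the block and total-count scaling (-0.0278) and with the block and number 1 or 3 left out (-0.0038 and -0.0242), and ranged from -0.0434 to 0.0815 with single libraries left out. Over the same fits CEBPB ranged from -0.0085 to 0.0850, TTR from -0.398 to 0.0228, and the endothelial marker STAB2 from -0.270 to 0.346, with -0.0138 for STAB2 with the block and number 3 left out. The log2 ratio of FOXA3 to FOXA2 ranged from -0.134 to 0.0813, and the other 4 ratios kept their sign. Taken as pairs in an exact permutation test of signs, the ratios gave the same differences, with P = 0.25 for 4 of the 5, the smallest that 3 pairs allow, and P = 1.00 for FOXA3 to FOXA2. HNF4G, FOXA1, FOXA2, FOXA3, CEBPA and PROX1 kept their sign in all fits run. Each factor had at least 766 reads in each library. The cause of these shifts was not tested.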

Other observations

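Partners of the 8 factors, cofactors and other proteins among them, were read from a list of 16 genes, all tested. Without the block 0 were called higher and 2 lower (12.5%, against 4.12% of all tested genes), and with it 5 were higher and 4 lower (56.2%, against 11.8%). PPARGC1A, a coactivator of HNF4A at gluconeogenic genes, fell from 21.1, 25.3 and 21.0 CPM with vehicle to 14.0, 13.8 and 12.3 CPM with TGFβ (log2 fold change -0.75, standard error 0.11, FDR 0.00331 from edgeR). Its relative PPARGC1B fell from 2.54, 3.54 and 2.84 CPM to 1.05, 1.18 and 0.823 CPM (log2 fold change -1.54, standard error 0.21, FDR 0.00274). Both kept the FDR threshold without any single library. NR0B2, a corepressor that binds HNF4A, had 27.5, 45.6 and 26.3 CPM with vehicle and 17.0, 32.1 and 17.4 CPM with TGFβ. Its groups overlapped, culture number 2 was the highest of each, and each TGFβ culture was below its partner (log2 fold change -0.58, FDR 0.395 without the block and 6.76e-05 with it). Of the TLE corepressors, which bind FOXA proteins, TLE1, TLE2 and TLE4 were called higher with the block (FDR 0.0246, 0.00476 and 0.0369) and not without it (log2 fold changes 0.20, 1.65 and 0.47, FDR 0.584, 0.0570 and 0.149). TLE2 stood at only 0.202 CPM on average with vehicle.

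The genes whose log2 CPM profiles over the 6 libraries lay closest to each factor, by the root mean square difference of centred values among 15898 genes, were read as a description. For CEBPA they were AC008738.1 (0.00779) and CTD-2540B15.11 (0.0361), which overlap it. For the others they were NSMCE4A and COQ5 for HNF4A (0.0192 and 0.0216), RP11-453F18__B.1 and GABPB1-AS1 for HNF4G (0.0390 and 0.0421), and CTD-2535L24.2 and SH3PXD2A for FOXA1 (0.0291 and 0.0337). ZBTB11-AS1 and THAP2 lay closest to FOXA2 (0.0290 and 0.0426), POLR1E and LINC00669 to FOXA3 (0.0237 and 0.0262), EMILIN2 and EMC8 to CEBPB (0.0173 and 0.0181), and WDR36 and RP11-876N24.4 to PROX1 (0.0221 and 0.0256). Among the 8 factors themselves, HNF4A and CEBPB were the closest pair (0.0663), followed by FOXA2 and PROX1 (0.0808), and HNF4G and CEBPA were the most distant (0.470).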
